A study of Mus musculus with 7 samples.

Results

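A set of 10 genes that mark the endothelial cells of brain vessels is described here across RNA-seq libraries of the mouse amygdala: Cldn5, Pecam1, Cdh5, Flt1, Kdr, Tek, Abcb1a, Slco1a4, Ly6c1 and Ly6a. They were taken by symbol from the deposited count table, and all 10 were found among its 35976 gene symbols. The choice used no measured value, but it was made with earlier results of these data known. The libraries came from male C57BL/6J mice whose amygdala had received an adeno-associated virus (AAV) whose guide RNA was aimed either at Nr2f2 (sgNr2f2, 3 libraries) or, for the controls, at the Rosa locus (sgRosa, 4 libraries). In both groups Cas9 was driven by the hSyn (synapsin) promoter, which is active in neurons, and the virus was left to express for more than 2 weeks. Both groups then went through tube restraint for 7 days, fear conditioning on 1 day and its extinction over 3 days, so no group was unstressed. The tissue was digested with papain, cells were passed through a magnetic kit for adult neurons, and each library was built from 5 ng of RNA. The samples are labelled as neurons, and the endothelial RNA in them therefore came through a preparation meant to leave other cells behind. The labels do not say whether a library was made from 1 animal or from a pool, so the spread behind each p-value may be partly technical.

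Endothelial cells line the vessels, and in the brain they form the blood-brain barrier. Tight junctions seal the gaps between them, efflux pumps and carriers decide which molecules cross, and receptors for vascular endothelial growth factor (VEGF) and for angiopoietins keep the vessel wall alive and quiet. Nr2f2 encodes the nuclear receptor COUP-TFII, which is known outside neurons for setting the identity of vein endothelium. The study asked about Nr2f2 in neurons under chronic stress, and the members show how much vessel RNA each library carried and whether it was alike in both groups.

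The bases upstream of 3 members are shown as examples of the opposite behaviour of members in the library sgRosa 4, described below: Ly6c1 and Cldn5 were at their highest there, and Slco1a4 was at its lowest. They were read from the RefSeq promoter table of GRCm38.p6, which matched 7 of the 10 members (all except Pecam1, Cdh5 and Ly6a), and they end at the base before the annotated start of the gene. They are written 5′ to 3′ on the gene's strand, and capitals mark the letters AGGTCA or CTTTGA on either strand. The regions are chr15:75048921-75049087 on the minus strand for Ly6c1, chr16:18776597-18776846 on the plus strand for Cldn5 and chr6:141856285-141856470 on the minus strand for Slco1a4.
Ly6c1: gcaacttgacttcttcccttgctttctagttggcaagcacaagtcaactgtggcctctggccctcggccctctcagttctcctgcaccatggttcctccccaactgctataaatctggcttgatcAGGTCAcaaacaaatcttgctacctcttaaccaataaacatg
Cldn5: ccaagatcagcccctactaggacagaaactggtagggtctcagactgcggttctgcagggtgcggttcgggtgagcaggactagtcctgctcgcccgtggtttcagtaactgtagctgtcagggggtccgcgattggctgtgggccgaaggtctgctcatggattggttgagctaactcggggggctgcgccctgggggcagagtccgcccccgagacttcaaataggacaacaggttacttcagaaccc
Slco1a4: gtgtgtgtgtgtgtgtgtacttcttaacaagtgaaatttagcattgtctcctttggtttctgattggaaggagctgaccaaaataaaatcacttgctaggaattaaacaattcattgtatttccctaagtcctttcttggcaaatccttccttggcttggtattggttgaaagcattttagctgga
The stretch upstream of Cldn5 is rich in G and C (59.6%), that of Slco1a4 is poor in them (37.6%), and that of Ly6c1 lies between (48.5%). AGGTCA is the core sequence that receptors of the Nr2f family bind, and CTTTGA is a core of the TCF/LEF factors of Wnt signalling. Over windows of 300 bases around the start site and on both strands, AGGTCA was present for 1 of the 7 matched members (Ly6c1) and in 16.3% of all 32851 promoters in the table. CTTTGA was present for 1 of the 7 (Abcb1a), a share of 16.003% among all promoters. Cores of ETS factors (CCGGAA in 1 member and CAGGAA in 1), of SOX factors (ACAAAG in 3) and the related receptor sequence GGGTCA (in 1) were searched the same way, and 14.9%, 30.6%, 18.7% and 13.7% of all promoters held them. A match in a window is a description of the sequence only.

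Total counts ran from 6266897 in sgRosa 4 to 20928677 in sgNr2f2 3, and the 10 members together held between 0.222% and 0.762% of a library's counts. Levels are given below as CPM, which are counts scaled to a common total with edgeR's TMM factors. Nr2f2, the targeted gene, was measured at 19.8, 16.5, 11.3 and 13.1 CPM in sgRosa 1 to 4 and at 11.9, 11.997 and 11.6 CPM in sgNr2f2 1 to 3. The groups overlapped, and its log2 fold change of -0.36 ± 0.37 (SE) did not pass the edgeR quasi-likelihood test (adjusted p = 0.905). The counts do not tell which cells gave these reads. sgRosa 4 stood apart from the other libraries in its depth, in its erythroid markers (a summed 32147 CPM, against 1335 to 3349 CPM in the other 6) and in how its counts were spread over short and long transcripts, so the members' results are given with and without it where it moves them.

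The marker check put endothelial RNA in every library. A list of 57 other endothelial markers summed to 18258, 9168, 13122 and 20877 CPM in sgRosa 1 to 4 and to 11096, 28525 and 15266 CPM in sgNr2f2 1 to 3. The 10 members summed to 5479, 2381, 3242 and 5598 CPM in sgRosa and to 2716, 6079 and 3090 CPM in sgNr2f2. Both sums were highest in sgRosa 1, sgRosa 4 and sgNr2f2 2 and lower in the other 4 libraries, and the groups overlapped. In sgRosa 4, however, Ly6c1 and Ly6a alone held 31.4% and 29.3% of the members' sum, and Cldn5 was also at its highest there. Slco1a4, Pecam1, Cdh5, Tek and Abcb1a were at their lowest in that library. The high sum of sgRosa 4 therefore does not stand for the members as a set. In bulk RNA, fewer endothelial cells and less RNA per endothelial cell cannot be told apart. Markers of the labelled cell type, neurons, summed to 498 to 1806 CPM over 15 genes, and oligodendrocyte markers summed to 23228 to 411077 CPM over 19 genes.

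No member differed between sgNr2f2 and sgRosa by the edgeR quasi-likelihood test, which called 0 of 14412 genes (0.00%) at an adjusted p under 0.05. At an unadjusted p under 0.05 the same test held 5.00% of all genes and 0 of the 10 members. DESeq2 called 0 members and 0.0293% of the genes to which it gave an adjusted p. The CPM of the 2 groups overlapped for all 10 members, while 8.31% of all genes tested had groups that did not overlap. Without sgRosa 4 all 10 still overlapped, against 18.0% of genes that did not. Of the members, 5 were fitted higher in sgNr2f2 (Cdh5, Pecam1, Flt1, Abcb1a and Tek) and 5 lower (Ly6c1, Ly6a, Cldn5, Kdr and Slco1a4), with a median log2 fold change of -0.01, against -0.11 over all genes tested. Without sgRosa 4 the median was 0.30, against -0.03 over all genes, and 6 of the 10 were fitted higher.

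**Figure D1:**
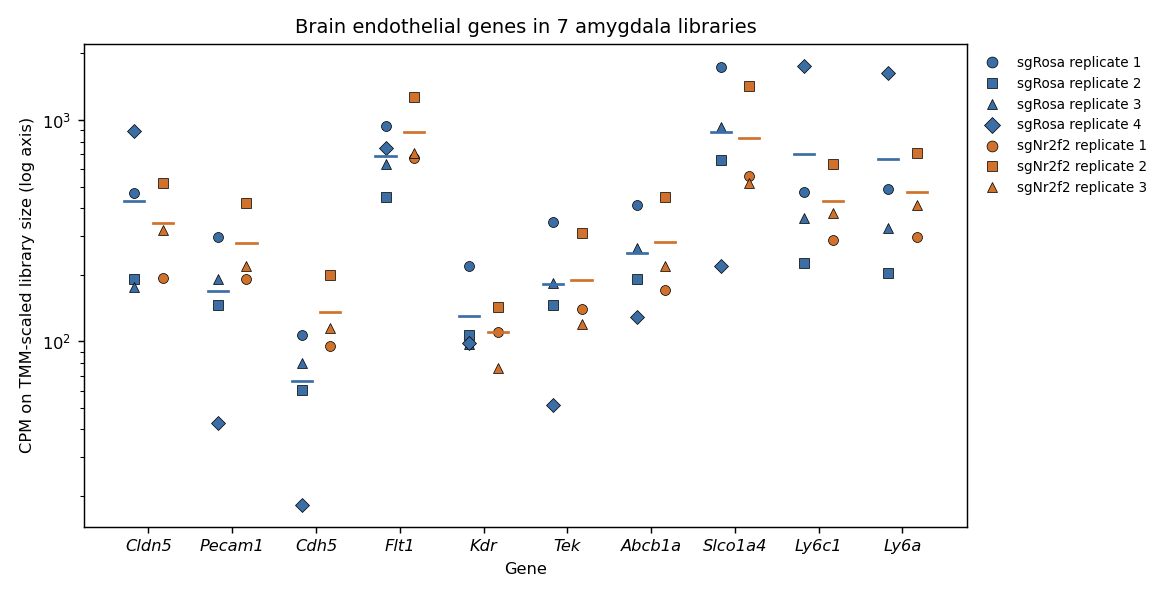
CPM of the 10 members on a log axis, with 1 point per library for sgRosa (4) and sgNr2f2 (3). The groups overlap for every member, and sgRosa 4 holds the highest Cldn5, Ly6c1 and Ly6a and the lowest Pecam1, Cdh5, Tek, Abcb1a and Slco1a4.

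Cldn5, Cdh5 and Pecam1 build the junctions between endothelial cells. Cldn5 (chromosome 16, 18776847 to 18778262, mm10) encodes claudin-5, the main tight junction protein of the blood-brain barrier. Its level was 466.5, 192.3, 176.1 and 895.9 CPM in sgRosa 1 to 4 and 192.6, 517.9 and 318.5 CPM in sgNr2f2 1 to 3. The sgNr2f2 libraries lay inside the range of sgRosa, which sgRosa 4 set at its upper end. The means were 433 ± 336 CPM (SD, n = 4) and 343 ± 164 CPM (SD, n = 3), and the log2 fold change was -0.33 ± 0.67 (SE, edgeR adjusted p = 0.955). Without sgRosa 4 it was 0.30.

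Cdh5 (chromosome 8, 104101613 to 104144504) encodes VE-cadherin, the adhesion protein of endothelial adherens junctions. Its level was 106.5, 60.4, 79.7 and 18.3 CPM in sgRosa 1 to 4 and 95.2, 198.8 and 115.4 CPM in sgNr2f2 1 to 3. All 3 sgNr2f2 libraries lay above sgRosa 2, 3 and 4, and only sgNr2f2 1 lay below sgRosa 1. With means of 66.2 ± 37.1 (SD, n = 4) and 136 ± 54.9 CPM (SD, n = 3), its log2 fold change of 1.04 ± 0.58 (SE) had the largest size among the members and an interval (95%) from -0.24 to 2.33 (edgeR adjusted p = 0.868). Of 21 other settings, the unadjusted p of Cdh5 was under 0.05 in 2, limma-voom with quality weights (0.0415) and DESeq2 without sgRosa 4 (0.0439), and its adjusted p passed in none. Pecam1 (chromosome 11, 106654213 to 106715281) encodes the adhesion protein CD31, which endothelial cells share with platelets and leukocytes. Its level was 294.9, 145.7, 190.7 and 42.9 CPM in sgRosa 1 to 4 and 191.7, 424.1 and 219.8 CPM in sgNr2f2 1 to 3. The lowest library was sgRosa 4 and the highest sgNr2f2 2, and the groups overlapped (log2 fold change 0.72 ± 0.63, SE, edgeR adjusted p = 0.893). Markers of platelets summed to 3 to 17 CPM over 9 genes and those of blood leukocytes to 5 to 53 CPM over 16 genes, with the highest sums in sgRosa 4, the library with the least Pecam1. With all libraries, 2 of 8 leukocyte markers tested were fitted higher in sgNr2f2 (median log2 fold change -0.18), beside 6317 of 14412 genes. Without sgRosa 4, however, 8 of 8 were fitted higher (median 1.09), the side of Pecam1, beside 6694 of 14096 genes. Ptprc, the surface phosphatase CD45 of leukocytes, had 31, 37, 9 and 10 counts in sgRosa 1 to 4 and 71, 199 and 39 counts in sgNr2f2 1 to 3, without overlap (log2 fold change 2.12 ± 0.66, SE, edgeR adjusted p = 0.868). Of all genes tested, 8.31% had groups without overlap in CPM. With all libraries the leukocyte markers Lck (-0.50), Nkg7 (-0.49) and Cd3e (-0.59) were fitted lower in sgNr2f2. The part of leukocytes in the level of Pecam1 was not tested.

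Flt1, Kdr and Tek are receptor tyrosine kinases of the vessel wall. Flt1 (chromosome 5, 147561604 to 147726438) encodes VEGF receptor 1, which binds VEGF tightly and signals weakly. It was 937.2, 450.0, 632.7 and 746.3 CPM in sgRosa 1 to 4 and 676.5, 1269.9 and 711.9 CPM in sgNr2f2 1 to 3. Library sgNr2f2 2 was highest and sgRosa 2 lowest, and the means of 692 ± 204 CPM (SD, n = 4) and 886 ± 333 CPM (SD, n = 3) lay within each other's spread. Kdr (chromosome 5, 75932827 to 75979072) encodes VEGF receptor 2, which carries most of the growth signal of VEGF. Its level was 218.0, 107.2, 97.0 and 98.5 CPM in sgRosa 1 to 4 and 110.8, 143.0 and 75.9 CPM in sgNr2f2 1 to 3. A single library, sgRosa 1, lay above the other 6. The log2 fold changes were 0.36 ± 0.51 (SE) for Flt1 and -0.24 ± 0.48 (SE) for Kdr, with edgeR adjusted p-values of 0.932 and 0.954. Without sgRosa 1 that of Kdr was 0.12.

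Tek (chromosome 4, 94739086 to 94874976) encodes the angiopoietin receptor that keeps resting endothelium stable. Its level was 346.6, 145.7, 182.7 and 51.6 CPM in sgRosa 1 to 4 and 140.8, 309.8 and 120.3 CPM in sgNr2f2 1 to 3. The sgRosa libraries span a wider range than sgNr2f2 at both ends, and the log2 fold change was 0.07 ± 0.64 (SE, edgeR adjusted p = 0.993).

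Slco1a4 and Abcb1a carry molecules across the barrier. Slco1a4 (chromosome 6, 141805438 to 141856284) encodes an organic anion transporter of brain endothelium and had the highest CPM of the members in 4 of the 7 libraries. Its level was 1738.5, 660.2, 931.6 and 219.1 CPM in sgRosa 1 to 4 and 556.3, 1425.7 and 517.0 CPM in sgNr2f2 1 to 3. The control group alone held both the highest and the lowest library, with sgNr2f2 between them (log2 fold change -0.09 ± 0.72, SE, edgeR adjusted p = 0.990). Abcb1a (chromosome 5, 8567091 to 8748575) encodes P-glycoprotein, the pump that returns many drugs to the blood. Its level was 413.9, 190.5, 265.3 and 128.5 CPM in sgRosa 1 to 4 and 170.6, 450.2 and 218.8 CPM in sgNr2f2 1 to 3. The groups overlapped over nearly their whole range (log2 fold change 0.17 ± 0.56, SE, edgeR adjusted p = 0.971). Its close paralog Abcb1b could have exchanged reads with it, since the handling of reads that map to several places is not given in the sources used here. Abcb1b had 34, 66, 62 and 6 counts in sgRosa 1 to 4 and 29, 24 and 81 counts in sgNr2f2 1 to 3.

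Ly6c1 (chromosome 15, 75044018 to 75048920) and Ly6a (chromosome 15, 74994877 to 74998031) encode small surface proteins of the Ly6 family, anchored in the membrane by a lipid, which brain endothelium carries along with some blood cells. Ly6c1 was measured at 470.8, 225.0, 361.8 and 1756.5 CPM in sgRosa 1 to 4 and at 286.3, 629.9 and 378.8 CPM in sgNr2f2 1 to 3. Ly6a was measured at 486.0, 204.4, 324.7 and 1640.1 CPM in sgRosa 1 to 4 and at 295.0, 709.5 and 413.9 CPM in sgNr2f2 1 to 3. The pair followed each other from library to library, and in both genes sgRosa 4 was far above all others. Their log2 fold changes were -0.70 ± 0.74 (SE) and -0.49 ± 0.74 (SE), with edgeR adjusted p-values of 0.908 and 0.938. Without sgRosa 4 both turned to the other side, at 0.29 for Ly6c1 and 0.48 for Ly6a. Ly6c2, a near copy of Ly6c1 that monocytes express, had 5 to 24 counts in sgRosa and 9 to 32 in sgNr2f2, and reads could have been split between the copies.

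**Figure D2:**
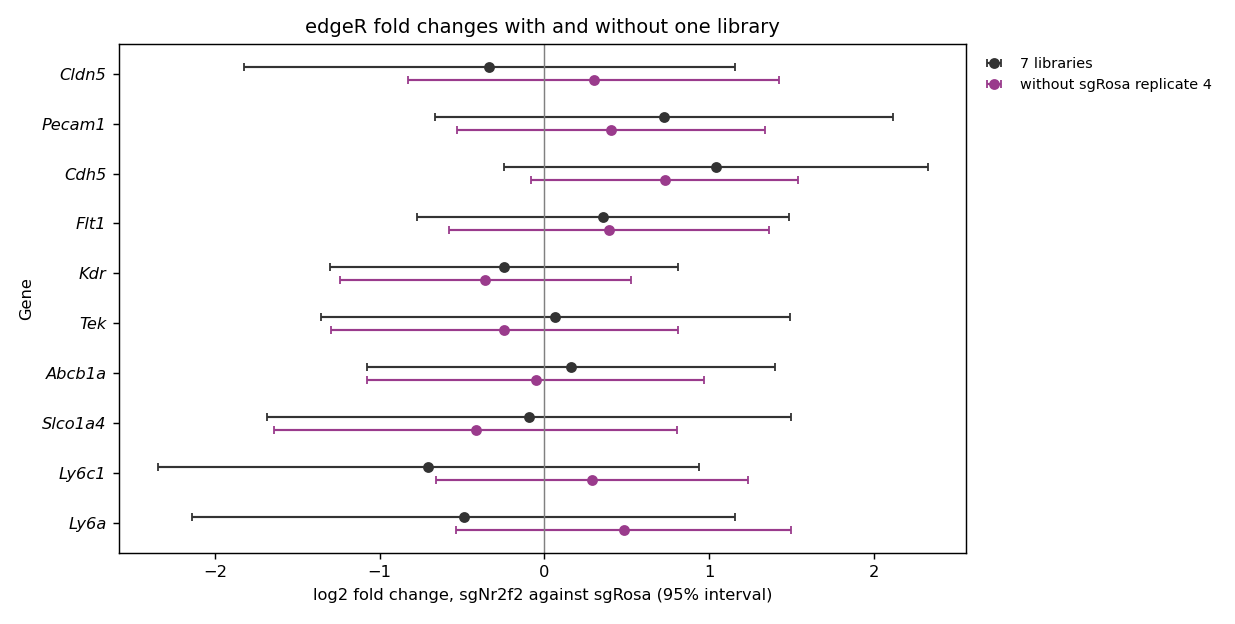
Log2 fold change of each member, sgNr2f2 against sgRosa, from edgeR with all 7 libraries and without sgRosa 4; bars are 95% intervals. All intervals include 0, and Cldn5, Ly6c1, Ly6a, Abcb1a and Tek change side when sgRosa 4 is left out.

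The direction of most members rested on single libraries. Leaving out each library in turn, Pecam1, Cdh5 and Flt1 were fitted higher in sgNr2f2 every time, whereas the other 7 changed side at least once. Cdh5 ranged from 0.67 to 1.37 on the log2 scale and Flt1 from 0.01 to 0.53. Slco1a4 ranged from -0.73 to 0.46 and Tek from -0.48 to 0.58.

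Within the control group, sgRosa 4 was higher in the members with the shortest transcripts and lower in those with transcripts of 3 to 5 kb. Against the mean of sgRosa 1 to 3, it was 4.98-fold higher in Ly6c1, 4.85-fold higher in Ly6a and 3.22-fold higher in Cldn5, whose longest GENCODE transcripts are 0.844, 0.955 and 1.416 kb. It was 5.07-fold lower in Slco1a4, 4.90-fold lower in Pecam1, 4.50-fold lower in Cdh5, 4.36-fold lower in Tek and 2.26-fold lower in Abcb1a, whose transcripts run from 3.441 to 4.997 kb. The 2 longest transcripts, Kdr and Flt1 (5.924 and 6.895 kb), moved least, with Kdr 1.43-fold lower and Flt1 1.108-fold higher. Length and level were related less simply over all coding genes tested: those under 1.5 kb had a median log2 ratio of sgRosa 4 to the other sgRosa libraries of 0.87 (1600 genes), those of 1.5 to 3 kb a median of -0.07 (4094 genes), those of 3 to 5 kb one of -0.62 (4229 genes) and those of 5 kb or more one of -0.35 (2949 genes). Among the other endothelial markers these medians were, in the same order, 0.98 (9 genes), 1.69 (12 genes), -0.12 (21 genes) and -0.43 (14 genes), so that the highest was not in the shortest class. What part length, the erythroid markers or the low depth had in the levels of sgRosa 4 was not tested.

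**Figure D3:**
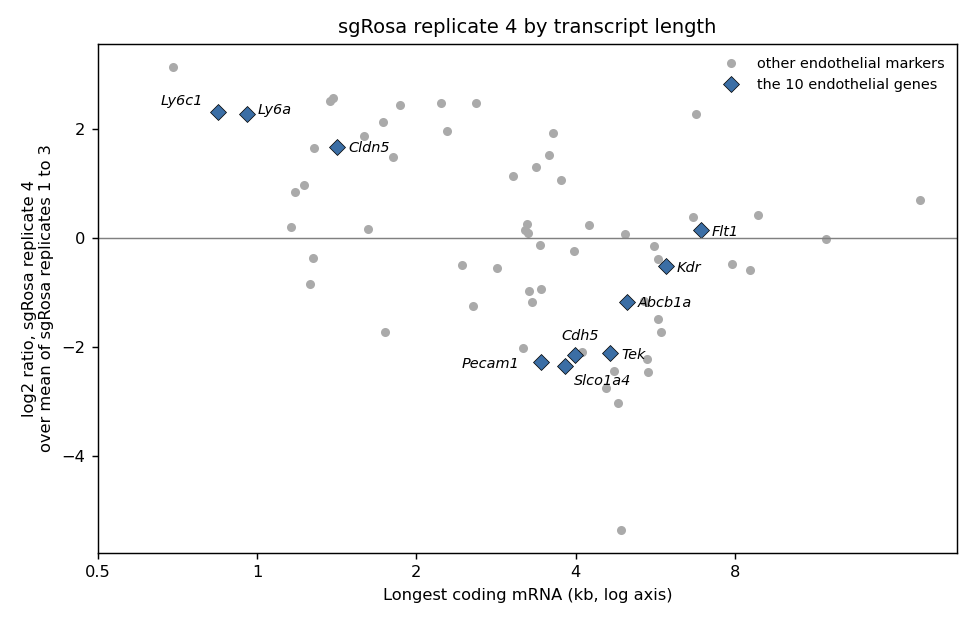
Log2 ratio of sgRosa 4 to the mean of sgRosa 1 to 3 against the length of the longest transcript in kb (log axis) for the members and the other endothelial markers. The 3 members under 1.5 kb lie above 0 and the 5 members of 3 to 5 kb lie below it.

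The members varied together once sgRosa 4 was set aside. Over the other 6 libraries the Pearson correlation of log2 CPM between members ran from 0.28 to 0.99 over 45 pairs, with a median of 0.84 and 0 negative pairs. Over all 7 libraries the range was -0.54 to 0.99, the median was 0.46, and 14 pairs were negative. These correlations are a description: the points share their libraries, and any difference in endothelial RNA between libraries moves all members at once. Each member's highest library was between 2.64 and 3.47 times its lowest over the 6 libraries. The libraries high in the members, sgRosa 1 and sgNr2f2 2, were also the lowest of the 6 in oligodendrocyte markers (98635 and 166720 CPM, against 318890 to 411077 CPM in the other 4); their part in the members' levels was not tested.

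Levels can be ranked between genes only per transcript length. Over the 6 libraries without sgRosa 4, Ly6c1 was highest at 465 ± 170 CPM per kb (SD, n = 6), followed by Ly6a at 425 ± 186, Slco1a4 at 254 ± 132 and Cldn5 at 219 ± 106 CPM per kb. Flt1 (113 ± 41.6), Pecam1 (71.1 ± 29.3) and Abcb1a (57.0 ± 23.8) came next in CPM per kb. Tek (44.6 ± 20.7), Cdh5 (27.4 ± 12.02) and Kdr (21.2 ± 8.50) were lowest in CPM per kb. The surface proteins, the anion transporter and the claudin thus stood above the receptors and VE-cadherin. Most neighbours in this order kept their places in at least 5 of the 6 libraries, but Cdh5 was above Kdr in only 4 of 6, so these 2 could not be ordered beyond their spread.

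Ratios between members within a library do not depend on library scaling, and some of them separated the groups. Of the 45 pairs of members, 10 had count ratios that did not overlap between sgRosa and sgNr2f2 (22.2%). The share was 8.49% over all pairs of genes tested and 23.8% over 1540 pairs of other endothelial markers, so the share among the members was close to that among other endothelial genes. Cdh5 was in 7 of the 10 pairs and was the relatively higher gene in sgNr2f2 in each. The pairs named here were picked after their values were seen and are given as a description, with no test.

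Slco1a4 against Cdh5 had count ratios of 16.3, 10.9, 11.7 and 12 in sgRosa 1 to 4 and of 5.84, 7.17 and 4.48 in sgNr2f2 1 to 3. All sgNr2f2 libraries were below all sgRosa libraries, 2.20-fold on average, and sgRosa 4 lay with its group. Slco1a4 against Pecam1 had ratios of 5.89, 4.53, 4.89 and 5.10 in sgRosa and of 2.90, 3.36 and 2.35 in sgNr2f2, 1.79-fold lower on average. Tek against Cdh5 had ratios of 3.26, 2.41, 2.29 and 2.83 in sgRosa and of 1.48, 1.56 and 1.04 in sgNr2f2, 1.99-fold lower on average. In these 3 ratios the transporter or the angiopoietin receptor was lower relative to a junction gene in every sgNr2f2 library. All 4 genes have transcripts of 3.441 to 4.654 kb, the length class in which sgRosa 4 was low for all 5 members.

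The other ratios that separated the groups again had Cdh5 or Pecam1 as the relatively higher gene in sgNr2f2. Pecam1 against Cdh5 was 2.77, 2.41, 2.39 and 2.35 in sgRosa and 2.01, 2.13 and 1.91 in sgNr2f2. Pecam1 against Tek was 0.851, 1.00, 1.04 and 0.831 in sgRosa and 1.36, 1.37 and 1.83 in sgNr2f2. Abcb1a against Cdh5 was 3.89, 3.16, 3.33 and 7.04 in sgRosa and 1.79, 2.26 and 1.90 in sgNr2f2. In this last ratio, of the efflux pump to VE-cadherin, sgRosa 4 lay farthest from sgNr2f2. Abcb1a against Pecam1, Kdr against Cdh5, Flt1 against Cdh5 and Ly6c1 against Cdh5 made up the 10 pairs. In Ly6c1 against Cdh5, sgRosa 4 had a ratio of 96.2, and leaving it out moved the log2 difference from -1.55 to -0.42. In Flt1 against Cdh5 it had a ratio of 40.9, and leaving it out moved the log2 difference from -0.88 to -0.30. Without sgRosa 4, 23 of the 45 pairs did not overlap (51.1%), beside 17.6% of all gene pairs and 52.3% of pairs of other endothelial markers.

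**Figure D4:**
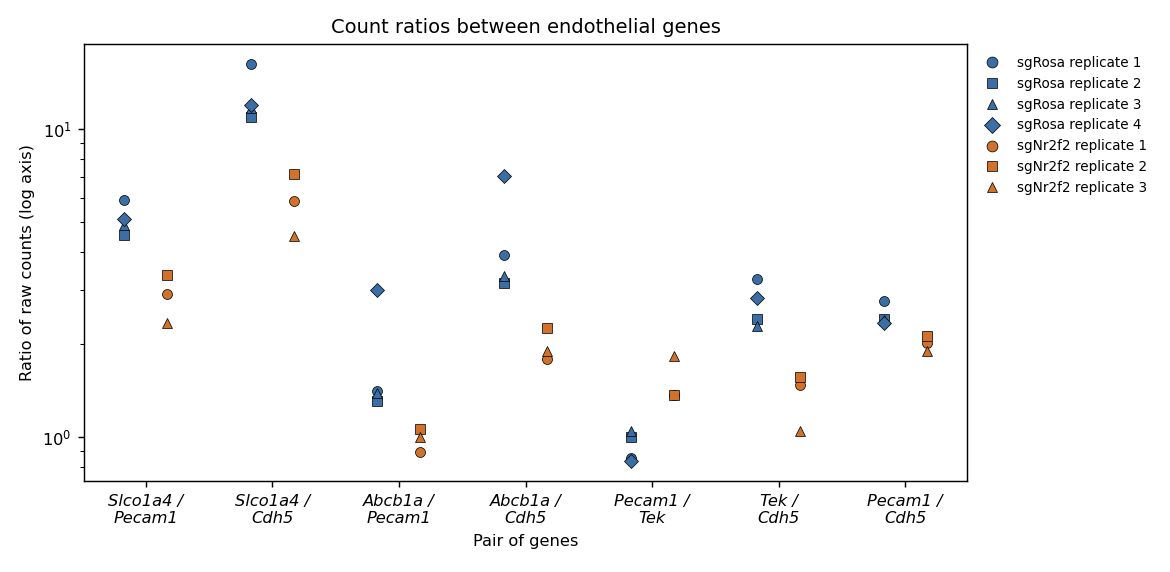
Count ratios between members by library, on a log axis, for 7 of the 10 pairs that did not overlap between the groups, with 1 point per library. The sgNr2f2 libraries lie below sgRosa in Slco1a4 and Tek against Cdh5, and above it in Pecam1 against Tek.

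Set against the summed counts of the other endothelial markers, 1 member had groups that did not overlap, against 6.34% of all genes tested. Cdh5 made up 5.83, 6.58, 6.07 and 0.875 counts per 1000 marker counts in sgRosa 1 to 4 and 8.58, 6.97 and 7.56 in sgNr2f2 1 to 3. Its share was higher in every sgNr2f2 library. Without sgRosa 4, Abcb1a, Slco1a4 and Tek were also apart, each lower in sgNr2f2 (15.2% of all genes did not overlap then). Slco1a4 made up 95.2, 72.0 and 71.0 counts per 1000 in sgRosa 1 to 3 and 50.1, 49.98 and 33.9 in sgNr2f2 1 to 3, while sgRosa 4, at 10.5, lay below both. Abcb1a made up 22.7, 20.8 and 20.2 counts per 1000 in sgRosa 1 to 3, 6.16 in sgRosa 4 and 15.4, 15.8 and 14.3 in sgNr2f2 1 to 3. In an edgeR fit scaled to these markers without sgRosa 4, a setting chosen after seeing the data, Slco1a4 had a log2 fold change of -0.83 ± 0.52 (SE, adjusted p = 0.877), and 0 members were called.

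The genes around the members in their pathways gave the same count of calls: 0 of the genes tested in each list passed the adjusted edgeR test. Among junction genes that are not members, 8 of 15 were fitted higher in sgNr2f2, with a median log2 fold change of 0.14 (all genes, -0.11), and 2 had an unadjusted p under 0.05. For comparison, 6317 of all 14412 genes tested were fitted higher, and 5.00% had an unadjusted p under 0.05. Marveld2, the tricellulin of corners where cells meet, had a log2 fold change of 1.21. Among barrier transporters and receptors 15 of 20 were fitted higher, with a median of 0.27. The glucose carrier Slc2a1 and the amino acid carrier Slc7a5 had log2 fold changes of 1.23 and 1.25. The lipid carrier Mfsd2a had one of 0.82, and none of these carriers passed the adjusted test. Slco1a4, at -0.09 ± 0.72 (SE) in the same fit, changed side between settings and gives no contrast with them.

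Partners of the receptor members were measured too. Of 20 VEGF and angiopoietin ligands, receptors and partners tested, 11 were fitted higher in sgNr2f2 (median 0.13), and 3 of the 20 did not overlap between groups, beside 8.31% of all genes. Without sgRosa 4 the median was 0.31. Angpt2, the angiopoietin that opposes the stabilising signal of Tek, was at 7.45, 6.66, 5.51 and 2.86 CPM in sgRosa 1 to 4 and at 12.7, 19.5 and 11.6 CPM in sgNr2f2 1 to 3. Every sgNr2f2 library was above every sgRosa library, with a log2 fold change of 1.37 ± 0.45 (SE) that did not pass adjustment over all genes (edgeR adjusted p = 0.868). Rcan1, an inhibitor of calcineurin that VEGF induces, had a log2 fold change of 0.97, and the ligand Vegfd one of -1.44. Of 21 Wnt and norrin signalling genes 13 were fitted higher (median 0.43), among them the receptors Fzd4 (1.14) and Lrp5 (1.36). Of 25 endothelial transcription factors 17 were fitted higher (median 0.44), among them Sox7 (1.18) and Epas1 (1.12). Beside these lists, 6317 of all 14412 genes tested were fitted higher (median -0.11).

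Endothelial genes by type of vessel depended on sgRosa 4. As a background, 6317 of 14412 genes tested were fitted higher with all libraries, and 6694 of 14096 without sgRosa 4. Of 20 arterial genes 10 were fitted higher and 10 lower (median -0.10), but without that library 5 of 20 were fitted higher (median -0.29). Among them were Notch4 at 1.28 and Mgp at -1.91 on the log2 scale. Of 17 venous genes 10 were fitted higher (median 0.30, and 0.14 without sgRosa 4), with Ephb4, a receptor of vein endothelium, at 1.08 and Vcam1 at -1.10. Of 17 genes of activated endothelium 12 were fitted higher (median 0.57, and 0.24 without sgRosa 4), with Icam1 at 0.89 and Nos3, the endothelial nitric oxide synthase, at 1.01. Vcam1 is in this list too and went the other way, at -1.10, and at -1.32 without sgRosa 4. Of 56 other endothelial markers tested 37 were fitted higher (median 0.22), and Rasip1, which opens vessel lumens, was at 69.3 ± 18.1 CPM in sgRosa (SD, n = 4) and 230 ± 105 CPM in sgNr2f2 (SD, n = 3). Its log2 fold change of 1.73 ± 0.47 (SE) had an edgeR adjusted p of 0.868. Myct1, from the same list, went the other way, at -3.25 ± 1.05 (SE, edgeR adjusted p = 0.868). It had 414, 103, 73 and 49 counts in sgRosa 1 to 4 and 0, 36 and 14 in sgNr2f2 1 to 3. Rasip1 and Myct1 were the 2 markers of this list without overlap between groups (3.57%), beside 8.31% of all genes. DESeq2 without sgRosa 4, a setting chosen after seeing the data, called 357 genes (2.28%), among them Rasip1 (adjusted p = 0.00268), Notch4 (0.00835), Mgp (0.0107), Nos3 (0.0118) and the pericyte gene Atp13a5 (7.4e-04), and 0 members. Atp13a5 had few counts, 25, 163, 65 and 1 in sgRosa 1 to 4 and 4, 0 and 6 in sgNr2f2 1 to 3. The library left out was thus as low as sgNr2f2, and with it the groups overlapped. Single libraries also set the size of many of the changes named here. Leaving out sgNr2f2 2 lowered the log2 fold change to 0.35 for Mfsd2a, 0.41 for Icam1, 0.49 for Nos3, 0.55 for Fzd4, 0.69 for Slc7a5, 0.70 for Lrp5 and Sox7 and 0.78 for Slc2a1. Leaving out sgRosa 4 raised that of Nos3 to 1.54, leaving out sgRosa 1 brought Vcam1 to -0.42, and leaving out sgRosa 2 brought Mgp to -1.12.

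Markers of cells that sit on or beside the vessels were summed in the same way. Pericyte and smooth muscle markers summed to 171, 544, 448 and 477 CPM in sgRosa 1 to 4 and to 372, 146 and 156 CPM in sgNr2f2 1 to 3. They were low in sgRosa 1 and sgNr2f2 2, where the members' sum was high. They were high in sgRosa 4 and low in sgNr2f2 3, as the members' sum was. Slco1a4, Pecam1, Cdh5, Tek and Abcb1a, however, were at their lowest in sgRosa 4. Of 16 tested, 15 were fitted lower in sgNr2f2 (median log2 fold change -1.004, and -0.72 without sgRosa 4), with 0 called by edgeR and 2 at an unadjusted p under 0.05. For comparison, 8095 of all 14412 genes tested were fitted lower, and 5.00% had an unadjusted p under 0.05. Astrocyte markers summed to 983, 1225, 1181 and 1864 CPM in sgRosa 1 to 4 and to 1205, 1593 and 1042 CPM in sgNr2f2 1 to 3. Of 14 astrocyte markers tested, 10 were fitted lower and 4 higher (median -0.76, and -0.85 without sgRosa 4), with 0 called by edgeR. The 2 at an unadjusted p under 0.05 were fitted higher. Microglia markers summed to 29, 50, 38 and 27 CPM in sgRosa and to 38, 32 and 46 CPM in sgNr2f2. Astrocyte sums were highest in sgRosa 4 and sgNr2f2 2 and lowest in sgRosa 1, and microglia sums were lowest in sgRosa 4 and sgRosa 1. The part of these cells in the members' values was not tested.

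**Figure D5:**
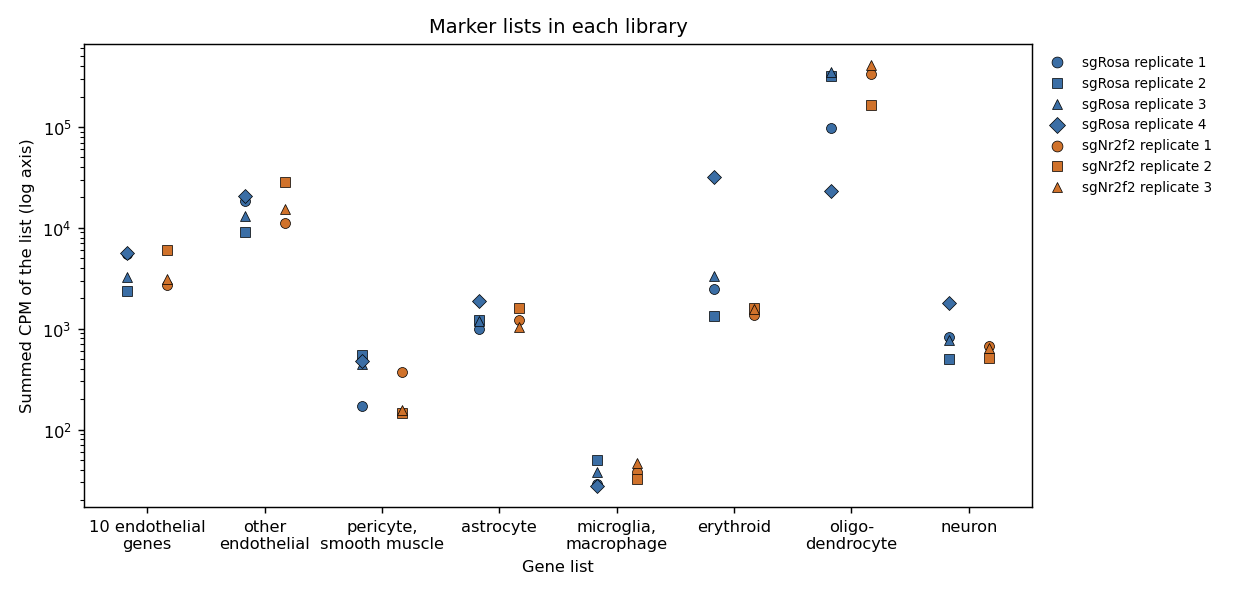
Summed CPM by library, on a log axis, for the members and for marker lists of other cell types. The sums of the members and of the other endothelial markers are highest in sgRosa 1, sgRosa 4 and sgNr2f2 2, and that of the erythroid markers is highest in sgRosa 4.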

How the data were processed

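RNA-seq was made from cells of a neuron isolation from the amygdala (4 sgRosa and 3 sgNr2f2 libraries; 6266897 to 20928677 counts each). For each gene symbol the authors deposited whole-number raw counts with no normalization, in 1 table and in 7 single-library files with equal values. The build was mm10, with STAR 2.7.5c, featureCounts 2.0.1, edgeR 3.42.4, fastp 0.23.2, MultiQC 1.11 and FastQC 0.11.9 among the tools, per the submitters' processing notes. The annotation, strand setting and handling of multiply mapped reads are not stated in the labels or files, so genes that overlap or have near copies may share reads. No molecular identifiers are named.

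From these counts, sgNr2f2 was compared with sgRosa in edgeR 4.0.16 (R 4.3.3) by its quasi-likelihood F test, with TMM factors, its filter on low counts (14412 genes kept, all 10 members among them), the group as the only term, and Benjamini-Hochberg adjustment over all genes kept (threshold 0.05). Log2 CPM used a prior count of 2. Count ratios were taken within each library. Alternatives used DESeq2 1.42.0, limma 3.58.1, other scalings and filters, a replicate block and the omission of each library. The scripts were tested on simulated data. Lengths are of the longest transcript in GENCODE M21 (74.0% of symbols matched, holding 86.1% of counts), coordinates and upstream sequence from RefSeq GRCm38.p6, the same build as mm10.

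The members and gene lists were chosen with earlier results of these data known. Named genes are the members, Nr2f2, paralogs of members, up to 4 genes per list with the smallest p, and the 10 genes most like the members over the 7 libraries.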

Additional observations from a re-analysis of the deposited data

Results flagged for a closer look

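In the 4 sgRosa libraries, 25 groups of values were screened for a library far from the other 3, and chance marks about 1 group in 20. Among member levels, Kdr was far higher in sgRosa 1 (218.0 CPM) than in the other sgRosa libraries, and Ly6c1 was far higher in sgRosa 4 (1756.5 CPM). Among count ratios, Abcb1a against Pecam1 (2.99), Flt1 against Cdh5 (40.9) and Ly6c1 against Cdh5 (96.2) were far higher in sgRosa 4. The ratio of Pecam1 to Cdh5 was far higher in sgRosa 1 (2.77). The summed erythroid markers were far higher in sgRosa 4 (32147 CPM).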

How the results depend on the processing

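Of the members, 0 were called under any of 18 alternatives or of 3 more chosen after seeing the data. Over all genes edgeR called 0, DESeq2 called 7, and DESeq2 without sgRosa 4 called 357. The median log2 fold change of the members ran from -0.48 to 0.49 with each library left out. Leaving out single libraries gave ranges of -0.75 to 0.30 for Cldn5, 0.29 to 1.14 for Pecam1, -0.48 to 0.12 for Kdr, -1.07 to 0.29 for Ly6c1, -0.36 to 0.52 for Abcb1a, -0.73 to 0.46 for Slco1a4, -0.48 to 0.58 for Tek and -0.90 to 0.48 for Ly6a. Cdh5 and Flt1 were on the higher side in every alternative. Other settings turned the side of some members, and the cause was not tested. With limma-voom quality weights the log2 fold change was 0.51 for Cldn5, 0.23 for Ly6c1, 0.46 for Ly6a, -0.092 for Abcb1a and -0.29 for Tek. Plain limma-voom gave 0.16 for Slco1a4. DESeq2 without sgRosa 4 gave 0.34 for Cldn5, 0.32 for Ly6c1, 0.52 for Ly6a, -0.016 for Abcb1a and -0.21 for Tek. Scaling by library size alone gave -0.053 for Abcb1a and -0.16 for Tek, and upper-quartile factors gave -0.025 for Tek. The endothelial level as a covariate gave -0.11 for Abcb1a and -0.16 for Tek. Scaling to the other endothelial markers gave -0.20 for Abcb1a and -0.29 for Tek, and without sgRosa 4 it gave -0.49 for Abcb1a, -0.63 for Tek, 0.093 for Ly6a and -0.0010 for Pecam1. The replicate block, fitted on the 6 libraries numbered 1 to 3 and so without sgRosa 4, called 0 genes and gave 0.37 for Cldn5, 0.27 for Ly6c1, 0.47 for Ly6a, -0.12 for Abcb1a and -0.29 for Tek. Same-numbered libraries had correlations of deviations of -0.20, -0.26 and 0.09, and 1 of 3 sgRosa libraries was closest to its own number. The deviations were taken from means of only 4 or 3 libraries, so these values cannot decide whether equal numbers pair the samples. With 4 against 3 libraries the exact permutation test cannot go below p = 0.0286, and the intervals of the members hold changes of 2-fold in at least 1 direction.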

Other observations

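Some genes followed the mean of the members from library to library. With all libraries, that mean is taken over members that went opposite ways in sgRosa 4. Over the 7 libraries, the log2 CPM of Fgd5, an exchange factor of endothelial cells, had a Pearson correlation of 0.98 with the mean standardised level of the members. The next were Nfkbia, Rhobtb1, Insr, Tapbp, Jak1, Gm41077, Plcg1, Cxcl12 and Ptprb, with correlations down to 0.96, and 5 of these 10 genes were already in the endothelial lists. Over the 6 libraries without sgRosa 4 the closest gene was Ptprb, a phosphatase that acts on Tek, at 0.997. Of the genes after it there, Slc22a8 was in the endothelial lists. Osmr, Osbpl9, Tnfaip8l1, Tapbp, Gpd2, Ebf1, Ptprm and Aqp11 were not. The points share their libraries, and these values are a description.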
